A study of Rattus norvegicus with 18 samples.

Results

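Cytosolic nucleic acid sensing is described here through 6 genes, Cgas, Sting1, Mavs, Tbk1, Irf3 and Trex1, taken by symbol from a table of 33898 genes. Each symbol matched 1 gene, and all 6 passed the filter on low counts that left 14184 genes to test. RNA was sequenced from nucleus pulposus cells, which fill the soft centre of the intervertebral disc, taken from Sprague Dawley rats (8 weeks old) and cultured with serum. For 24 hours the cells received PDS, Phen-DC3 or Braco-19. These are ligands that stabilise G-quadruplexes, the 4-stranded folds of guanine-rich DNA and RNA. There were 6 groups of 3 libraries: PDS and its controls, Phen-DC3 and its controls, and Braco-19 and the controls whose titles name no compound, assigned to it by elimination. Doses and the vehicle are not in the labels. The 3 libraries of each group are described as biological repeats, but no label ties them to separate animals or cultures, so p-values measure the spread between these libraries, which may be technical.

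Cgas encodes the enzyme that binds double-stranded DNA in the cytosol and makes the messenger cGAMP. Sting1 encodes the endoplasmic reticulum protein that binds cGAMP and moves to the Golgi, and Mavs encodes the mitochondrial adaptor for the RNA sensors RIG-I and MDA5. Both routes meet at the kinase TBK1, which phosphorylates the transcription factor IRF3. The exonuclease TREX1 degrades DNA in the cytosol before it is sensed. The proteins are switched largely by ligand binding, phosphorylation and trafficking, none of which was measured here.

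Because the compounds bind G-quadruplexes, the promoters of the genes were searched for a G-quadruplex pattern: 4 runs of at least 3 G separated by 1 to 7 bases, on either strand. RefSeq promoters of rat build GRCr8 were used, from 250 bases before to 50 after the start site, and 5 of the 6 genes matched (all but Cgas). Trex1 and Mavs held 1 such stretch each, and Sting1, Tbk1 and Irf3 held none. The pattern was in 5563 of 33469 promoters of the same length (16.6%). The stretch of Trex1 lay on the gene's own strand, 157 to 137 bases before the start site, and that of Mavs on the other strand, 139 to 118 bases before it. An interferon response pattern, GAAA repeated after 2 bases of any kind, was searched on both strands and found in 0 of the 5 promoters and in 3.92% of all promoters. Such matches describe letters and show no fold or binding. The promoters of Trex1 and Mavs are printed because they hold the pattern, in capitals, and that of Sting1 because it was the gene of the 6 that passed the test under a compound.
Trex1, chr8:118586333-118586632, minus strand: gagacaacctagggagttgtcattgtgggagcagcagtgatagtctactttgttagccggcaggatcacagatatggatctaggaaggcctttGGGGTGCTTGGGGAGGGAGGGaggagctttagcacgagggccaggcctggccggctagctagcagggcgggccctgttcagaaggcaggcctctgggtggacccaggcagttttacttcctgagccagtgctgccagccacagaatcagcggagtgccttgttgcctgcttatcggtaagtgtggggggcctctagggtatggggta
Mavs, chr3:138904562-138904861, plus strand: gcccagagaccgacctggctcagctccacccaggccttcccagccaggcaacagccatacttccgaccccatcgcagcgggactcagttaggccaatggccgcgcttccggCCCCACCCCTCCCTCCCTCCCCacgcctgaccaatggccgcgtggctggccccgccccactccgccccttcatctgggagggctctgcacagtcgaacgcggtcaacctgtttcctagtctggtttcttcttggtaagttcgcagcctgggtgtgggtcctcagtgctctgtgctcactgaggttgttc
Sting1, chr18:27612399-27612698, minus strand: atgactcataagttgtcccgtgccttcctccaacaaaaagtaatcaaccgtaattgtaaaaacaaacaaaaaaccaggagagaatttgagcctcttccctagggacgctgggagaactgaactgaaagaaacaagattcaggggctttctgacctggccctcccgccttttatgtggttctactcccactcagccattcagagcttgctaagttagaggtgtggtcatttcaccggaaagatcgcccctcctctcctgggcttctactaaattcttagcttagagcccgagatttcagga

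Library totals were 15715121 to 18369443 counts. The Braco-19 libraries and their controls stood apart from the other 12 libraries. Genes longer than 5000 bp took 24.2 ± 0.95% of counts with Braco-19 and 25.3 ± 0.18% in its controls, against group means of 7.99 to 9.99% elsewhere (SD, n = 3). Fibroblast-type markers did not move together. Col1a1, a collagen I chain, had group means of 5280 CPM (reads per gene scaled to the size of the library, by TMM factors) with Braco-19 and 4850 CPM in its controls, against 1110 to 1410 CPM in the other 4 groups, and it carried the sum of the 7 markers found (5760 to 7540 CPM, against 2650 to 3200 CPM). By group means Col3a1, Pdgfra and Fap were also higher in the Braco-19 set, while Thy1 was lower (617 and 560 CPM, against 798 to 935 CPM), as was Dcn (205 and 229 CPM, against 237 to 326 CPM), and Lum overlapped. Of 16 markers of nucleus pulposus and notochord type, 14 matched, 11 passed the filter and 2 were at 0 in all libraries. Their sum was 448 to 476 CPM in the Braco-19 set, against 282 to 335 CPM elsewhere, but they did not move together. By group means Ncam1 had 200 and 208 CPM in the Braco-19 set, against 57.7 to 94.3 CPM elsewhere, and carried much of the difference. Pax1, Sox9, Foxf1 and Acan were also higher there. Cd24 (12.5 and 13.7 CPM, against 30.3 to 39.8 CPM), Krt8 and Ca12 were lower, and Col2a1, Cdh2 and Ca3 overlapped. Pax1, a factor of disc development, reached 73.7 to 116 CPM and Col2a1, the collagen II chain, 9.13 to 24.4 CPM, whereas Acan, which encodes aggrecan, had 0.0586 to 3.44 CPM and the notochordal keratin Krt19 had 0 counts. Of 17 leukocyte markers, 3 passed the filter and 5 were at 0 in all libraries, among them Ptprc (CD45). Their sum, mostly Cd14, was 34.8 to 48.2 CPM in the Braco-19 set, against 95.6 to 122 CPM elsewhere. By group means the other markers past the filter, Cd68 and Csf1r, were higher in the Braco-19 set (Cd68 at 4 and 2.57 CPM, against 1.07 to 1.46 CPM).

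All 6 genes were detected in each of the 18 libraries. Per kilobase of gene model and as the mean over the libraries, Trex1 was highest at 37.7 CPM per kb, followed by Irf3 at 22.9, Tbk1 at 11.6, Mavs at 8.58, Sting1 at 3.39 and Cgas at 2.55. The DNA sensor and its receptor were the least abundant of the 6 transcripts in every group, but their own order was not fixed: Cgas averaged 3.79 CPM per kb and Sting1 3.35 in the Braco-19 controls. Cgas had 37 to 107 reads per library and Sting1 73 to 143, while the other genes had 355 to 839. The fitted coefficient of variation between replicates was 0.165 for Cgas and 0.147 for Sting1, and 0.07 to 0.0897 for the other 4. The true error exceeds counting error. As means over the tested genes, squared differences between libraries of a group were 4.09 to 34.1 times the counting expectation. No source used here describes molecular identifiers in the reads. In bulk RNA, fewer cells that express a gene and less RNA per cell cannot be told apart.

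In the positions of the deposited table (build not stated in the labels), Cgas (ENSRNOG00000046191) lies on chromosome 8 from 85789763 to 85803433 and Trex1 (ENSRNOG00000022540) on chromosome 8 from 117796128 to 117797427, both on the minus strand. Sting1 (ENSRNOG00000042137) lies on chromosome 18 from 28529576 to 28535828 on the minus strand, and Mavs (ENSRNOG00000025295) on chromosome 3 from 123776181 to 123790567 on the plus strand. Tbk1 (ENSRNOG00000005528) lies on chromosome 7 from 63655247 to 63687978 on the minus strand, and Irf3 (ENSRNOG00000043388) on chromosome 1 from 100992405 to 100997198 on the plus strand. Each value covers the whole gene model, from 1019 bp in Trex1 to 3009 bp in Mavs. Irf3 overlaps Bcl2l12, on the opposite strand, by 865 bp. No source used here says whether the counting used strand, so reads from the overlap cannot be assigned with certainty.

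**Figure D1:**
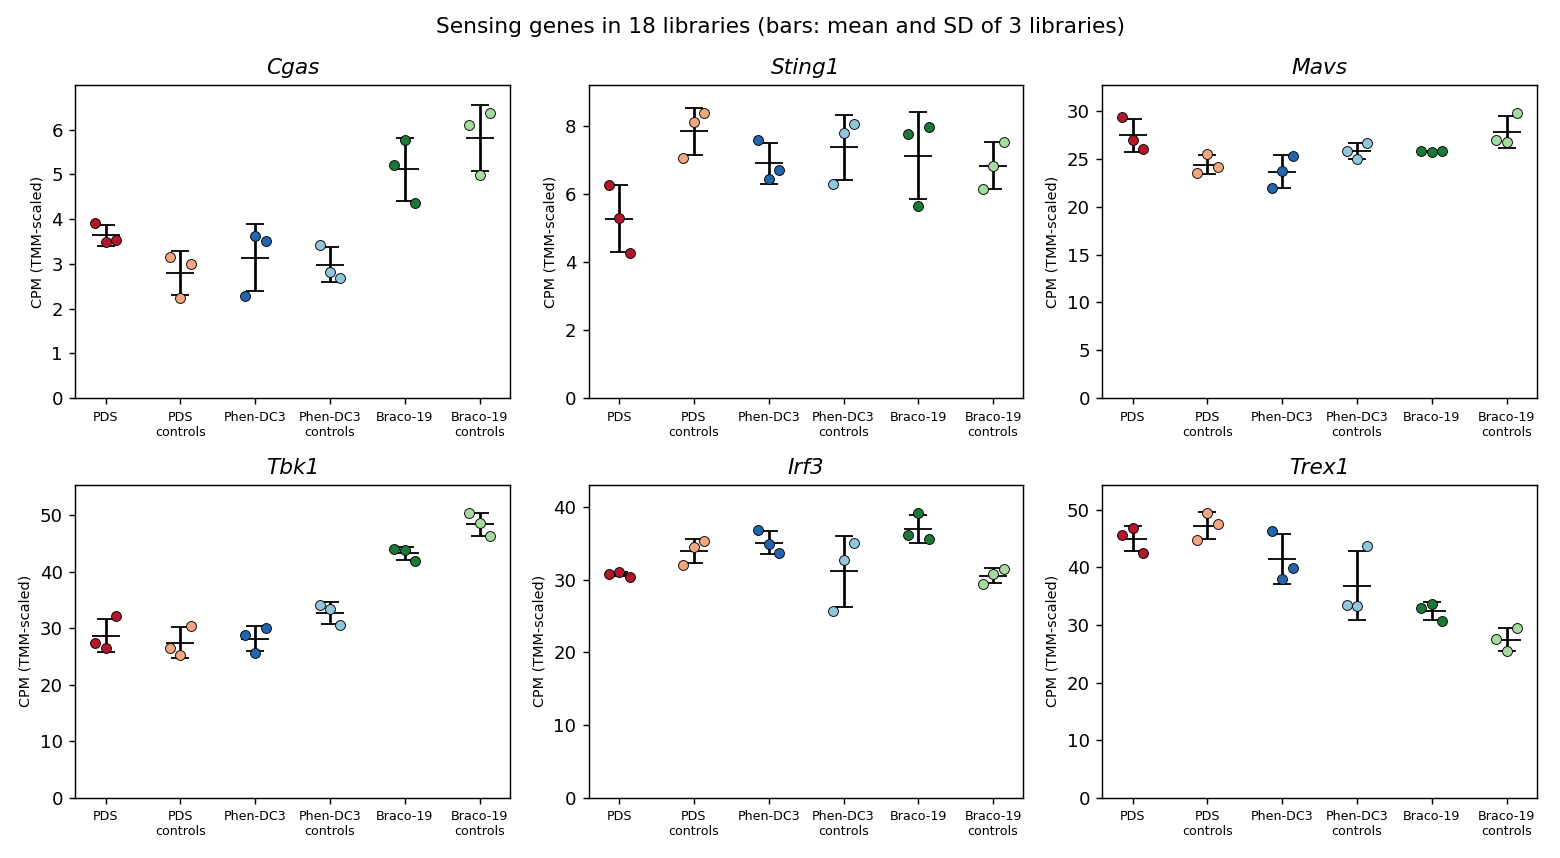
CPM on TMM-scaled library sizes (vertical axes, linear from 0) of the 6 genes in the 18 libraries, by group; points are libraries and bars give the mean and SD of 3. Sting1 lies at 4.29 to 6.28 CPM with PDS, below its controls at 7.07 to 8.39 CPM, and Tbk1 and Cgas are higher in the 6 libraries of the Braco-19 set than in the other 12.

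Under PDS, the transcript of the cGAMP receptor fell and the other 5 genes did not pass the test. Sting1 had 6.28, 5.29 and 4.29 CPM in the 3 PDS libraries, against 7.07, 8.13 and 8.39 CPM in the PDS controls. All PDS libraries lay below all controls, and the highest PDS value was near the lowest control. The mean was 5.29 ± 1.00 CPM with PDS and 7.86 ± 0.70 CPM in controls (SD, n = 3 each), a difference of -32.7%. The log2 fold change was -0.57 ± 0.17 (SE; 95% interval -0.93 to -0.21; edgeR quasi-likelihood test, adjusted p = 0.0437).

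Across the genome 8.09% of tested genes passed under PDS, 5.13% higher and 2.96% lower, and 1 of 6 is read against that share and is not a result about the set. The median log2 fold change of the 6 was -0.0019, against 0.0197 for all genes. The Sting1 call sat close to the threshold. It was lost in 8 of 15 alternatives, among them leaving out PDS replicate 2 or 3 or any 1 of the 3 PDS controls, and having no count filter. Over the 15 its log2 value ran from -0.72 to -0.44 and its adjusted p from 0.0214 to 0.221. Summed nucleus pulposus markers were 310 to 321 CPM with PDS and 285 to 307 CPM in controls, but they did not move together. By group means Ncam1 (94.3 CPM with PDS and 71 CPM in controls), Cdh2, Sox9, Ca3, Ca12, Foxf1 and Acan were higher with PDS. Col2a1 (9.8 and 17.3 CPM), Cd24 (30.3 and 37.3 CPM), Krt8 and Pax1 were lower. Of these, Acan was at very low levels (0.217 and 0.18 CPM). Foxf1 (36.3 and 35.1 CPM) and Pax1 (76.6 and 78.2 CPM) barely differed. Summed leukocyte markers, mostly Cd14, were 113 to 122 CPM with PDS and 109 to 114 CPM in controls. The part of these markers in the Sting1 result was not tested.

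Cgas, upstream of STING, had 3.91, 3.49 and 3.52 CPM with PDS, against 3.14, 2.24 and 3.00 CPM in controls. The PDS libraries were all above the controls, but with 58 to 66 reads with PDS and 38 to 52 in controls the interval of the difference spanned 0 (log2 0.38 ± 0.21, 95% interval -0.05 to 0.82, adjusted p = 0.283 by edgeR). Mavs, the adaptor of the RNA route, had 29.4, 26.9 and 26.0 CPM with PDS, against 23.5, 25.5 and 24.1 CPM in controls. These groups did not overlap either, and the log2 difference was 0.17 ± 0.08 (edgeR adjusted p = 0.226).

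Tbk1, the kinase shared by both routes, averaged 28.7 ± 2.98 CPM with PDS and 27.4 ± 2.73 CPM in controls, with overlapping libraries (log2 0.07 ± 0.09, edgeR adjusted p = 0.705). Irf3, its substrate, averaged 30.8 ± 0.30 CPM with PDS and 34.0 ± 1.69 CPM in controls (log2 -0.14 ± 0.09, edgeR adjusted p = 0.376), with all PDS libraries below the controls. The exonuclease Trex1 averaged 45.0 ± 2.18 CPM with PDS and 47.3 ± 2.37 CPM in controls (log2 -0.07 ± 0.10, edgeR adjusted p = 0.715). PDS libraries lay wholly to 1 side of their controls for 4 of the 6 genes, and for 33.3% of all tested genes.

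Under Phen-DC3, 0 of the 6 genes passed the edgeR test, where 8.01% of tested genes did (2.19% higher and 5.82% lower), and 1 gene, Tbk1, had an unadjusted p under 0.05. The share of all genes rested on single libraries: the 1136 genes called became 0, 22, 3 and 129 without Phen-DC3 replicate 1 or 2 or control replicate 1 or 2, 2653 and 3315 without replicate 3 of Phen-DC3 or of the controls, 1 with the groups alone and 47 after length correction. Tbk1 had 28.7, 25.7 and 30.1 CPM with Phen-DC3, against 34.1, 33.3 and 30.5 CPM in the Phen-DC3 controls. The groups did not overlap, but Phen-DC3 replicate 3 and control replicate 3 were close (log2 -0.21 ± 0.09, 95% interval -0.41 to -0.02, edgeR adjusted p = 0.137). Groups were separated for 1 of the 6 genes, and for 22.1% of all tested genes. 

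Irf3 had 36.8, 34.9 and 33.6 CPM with Phen-DC3, against 25.7, 32.8 and 35.0 CPM in controls, where replicate 1 was low (log2 0.17 ± 0.09, edgeR adjusted p = 0.233). Trex1 had 46.3, 38.0 and 40.0 CPM with Phen-DC3, against 33.4, 33.3 and 43.8 CPM in controls (log2 0.17 ± 0.10, edgeR adjusted p = 0.292). Control replicate 3 was high, and without it Trex1 differed by 0.31 and passed, the one call among the 6 genes in the 15 alternatives. In both genes the controls spread more widely than the treated libraries. Mavs averaged 23.7 ± 1.70 CPM with Phen-DC3 and 25.8 ± 0.83 CPM in controls, Cgas 3.14 ± 0.74 and 2.98 ± 0.39 CPM, and Sting1 6.92 ± 0.60 and 7.38 ± 0.95 CPM, and the libraries overlapped in all 3 genes. For Sting1 the 95% interval of the log2 difference was -0.45 to 0.26 and for Cgas -0.36 to 0.52, so changes within these limits were not excluded. Phen-DC3 libraries also gave long genes a smaller share of counts (7.99 ± 0.52%, against 9.99 ± 0.74% in controls), and log2 fold changes ran against gene length (Spearman -0.443 across genes, which are not replicates). With the length trend of each library removed, the log2 difference of Trex1, the shortest of the 6 gene models, was 0.01 and that of Irf3 0.07.

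Under Braco-19, 0 of the 6 genes passed the edgeR test, against 0.275% of all tested genes (0.169% higher and 0.106% lower), and Irf3 and Trex1 had an unadjusted p under 0.05. Irf3 had 36.1, 39.2 and 35.6 CPM with Braco-19, against 29.4, 30.8 and 31.5 CPM in its controls. All 3 treated libraries were above all controls (log2 0.27 ± 0.09, 95% interval 0.08 to 0.47, edgeR adjusted p = 0.158). Trex1 had 32.9, 33.7 and 30.7 CPM with Braco-19, against 27.6, 25.5 and 29.4 CPM in controls, again without overlap (log2 0.24 ± 0.10, edgeR adjusted p = 0.235).

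Tbk1 averaged 43.2 ± 1.11 CPM with Braco-19 and 48.4 ± 2.03 CPM in controls (log2 -0.16 ± 0.09, edgeR adjusted p = 0.33), with all treated libraries below the controls. Mavs averaged 25.8 ± 0.05 and 27.8 ± 1.68 CPM (log2 -0.11 ± 0.08, edgeR adjusted p = 0.478), also without overlap. Cgas averaged 5.11 ± 0.71 CPM with Braco-19 and 5.81 ± 0.73 CPM in controls, and Sting1 7.14 ± 1.29 and 6.84 ± 0.69 CPM, with overlapping libraries in both genes. Groups were separated for 4 of the 6 genes, and for 28.1% of all tested genes.

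**Figure D2:**
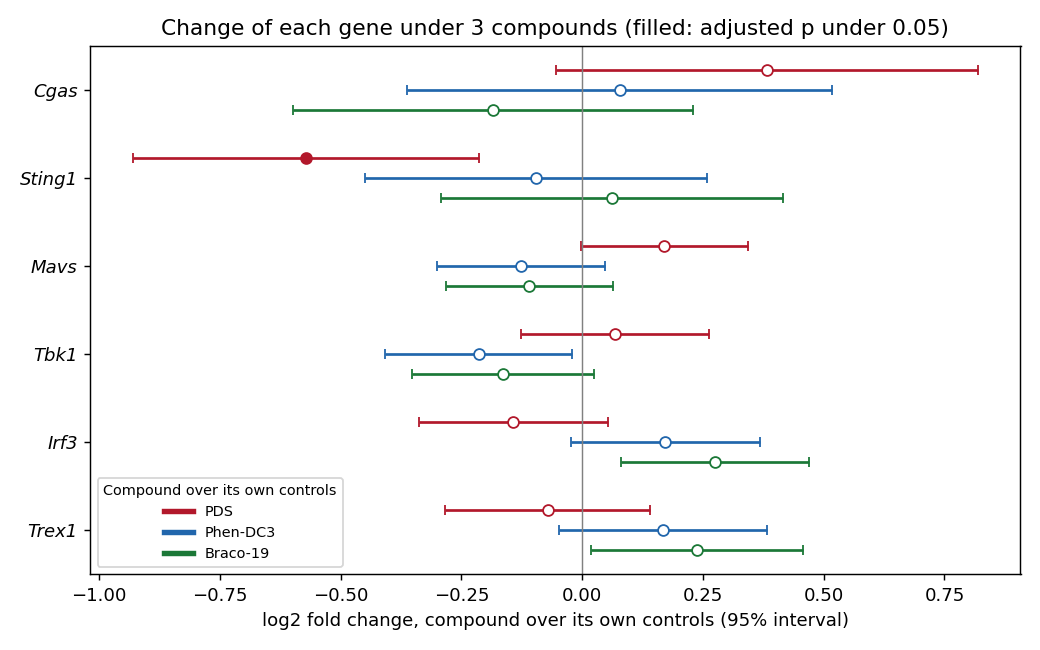
log2 fold change of each gene under PDS, Phen-DC3 and Braco-19 over the compound's own controls (horizontal axis), with 95% intervals; a filled point has an adjusted p under 0.05. Only Sting1 under PDS is filled, at -0.57. For Mavs, Tbk1, Irf3 and Trex1, with no filled point, the PDS point lies on the other side of 0 from both other compounds. The share of all tested genes with such signs was not counted.

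The 3 compounds were then compared with each other as differences between their effects, 3 pairs of compounds for each of the 6 genes, with p-values adjusted over all tested genes of each pair. For 4 genes (Mavs, Tbk1, Irf3 and Trex1) the sign of the change under PDS was opposite to that under both other compounds. None of these changes of a compound over its own controls passed. The share of all tested genes with such signs was not counted. Across all genes log2 fold changes ran with gene length under PDS (Spearman 0.174) and against it under Phen-DC3 (-0.443) and Braco-19 (-0.225). Mavs and Tbk1 have the longest gene models of the 6, and Trex1 and Irf3 the shortest. With the length trend removed, the signs of these genes were kept. The sign of Tbk1 under PDS turned without PDS replicate 3 (log2 -0.02), and Trex1 under Phen-DC3 was near 0 after length correction, as given above. For Irf3 the effects of PDS and Braco-19 differed by -0.42 ± 0.13 on the log2 scale (95% interval -0.69 to -0.14, edgeR adjusted p = 0.0413), in a comparison where 14% of tested genes passed. That call was kept in 8 of 21 alternatives and had an adjusted p of 0.059 after length correction, within a range of 0.00733 to 0.111. It was lost without any 1 of the 12 libraries of the 4 groups other than PDS control replicate 1 and Braco-19 replicate 1. Bcl2l12, which overlaps Irf3, had log2 differences of 0.10 ± 0.12 under PDS and 0.20 ± 0.12 under Braco-19, neither past the threshold.

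Sting1 differed between PDS and Braco-19 by -0.63 ± 0.24 (95% interval -1.14 to -0.13, edgeR adjusted p = 0.08) and between PDS and Phen-DC3 by -0.48 ± 0.24 (95% interval -0.98 to 0.03, edgeR adjusted p = 0.162). The fall of Sting1 under PDS was thus not shown to differ from its change under the other compounds. Mavs differed by 0.30 ± 0.12 between PDS and Phen-DC3 (edgeR adjusted p = 0.0772). Of the 6 genes, 0 passed between PDS and Phen-DC3, where 20.2% of all genes did and 3 of the 6 had an unadjusted p under 0.05. Between Phen-DC3 and Braco-19, 0 passed, against 0.0494% of all genes, and 0 had an unadjusted p under 0.05. At that cut the share of all genes was not counted. The widest interval of that pair was that of Cgas, -0.34 to 0.87, so similar responses were not shown.

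Other genes of the pathway were taken from 6 lists of 118 symbols, of which 113 matched and 97 were tested. The roles given for them are known largely from human and mouse cells. Genes that IRF3 and interferon signalling induce rose under PDS, while the receptors, kinases and trafficking factors mostly did not pass. Under PDS 19 of the 97 rose and 2 fell (21.6%, against 8.09% of all genes). Of the 12 output genes 10 rose, with a list median of 1.65 on the log2 scale. The 4 with the smallest p were Usp18 (log2 1.90), Oasl (1.70), Cxcl10 (1.97) and Isg15 (1.39). Their calls were kept under all 15 alternatives. Such genes were known to be raised in these libraries when the list was drawn up, so neither count, of the 97 or of the 12, is independent support. Without that list 9 of 85 genes rose and 2 fell (12.9%). The other lists were also drawn up with earlier results of these data known, so this share is not independent support either.

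Among 17 sensors, 4 rose and 0 fell under PDS, but 1 of the 4, Oas1a, reached the test only through the PDS libraries. Without it and the output genes, 8 of 84 pathway genes rose and 2 fell (11.9%), which again is not independent support. Ddx41, a DEAD-box helicase that senses DNA, averaged 112 ± 4.20 CPM with PDS and 75.0 ± 3.50 CPM in controls (log2 0.58 ± 0.10, edgeR adjusted p = 0.000509). Dhx58, which encodes the RIG-I-like receptor LGP2, averaged 8.43 ± 0.53 CPM with PDS and 5.17 ± 1.69 CPM in controls (log2 0.70 ± 0.20, edgeR adjusted p = 0.0323). Oas1a, an oligoadenylate synthetase activated by double-stranded RNA, had 22 to 31 reads with PDS and 1 to 9 in controls (log2 2.71 ± 0.76). It had 0 to 9 reads in the 15 libraries outside the PDS group, all under the count filter, so its call is a description. Lrrfip1 rose by 0.39 ± 0.09. The calls of Dhx58 and Oas1a were each lost without any 1 of 5 of the 6 libraries, and that of Lrrfip1 without PDS control replicate 2, while that of Ddx41 was kept under all 15 alternatives.

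Among 21 adaptors, kinases and factors, 2 rose and 1 fell under PDS. Irf7, the interferon-inducible relative of Irf3, averaged 46.8 ± 4.81 CPM with PDS and 28.4 ± 3.86 CPM in controls (log2 0.72 ± 0.10, edgeR adjusted p = 0.000104). Traf3, a ubiquitin ligase that links MAVS to TBK1, rose by 0.34 ± 0.08, and Sqstm1, the autophagy receptor p62 that delivers STING for degradation, fell by 0.28 on the log2 scale (± 0.08). Among 13 nucleases and editors, 2 rose: Enpp1, the hydrolase of extracellular cGAMP, averaged 59.6 ± 1.94 CPM with PDS and 42.1 ± 2.69 CPM in controls (log2 0.50 ± 0.11, edgeR adjusted p = 0.00482), and Adar, the RNA-editing enzyme, had a log2 change of 0.31 ± 0.10 (edgeR adjusted p = 0.0467). Of 26 trafficking and ubiquitin regulators 1 fell, Usp20, a deubiquitinase of STING (log2 -0.28 ± 0.08), and of 8 genes of interferon receptor signalling 1 rose, Irf9 (0.45 ± 0.13). The calls of Irf7 and Enpp1 were kept under all 15 alternatives. Those of Traf3, Sqstm1, Adar, Usp20 and Irf9 were lost under at least 1, Adar under 11 of 15.

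Under Phen-DC3, 1 of the 97 genes rose and 5 fell (6.19%, against 8.01% of all genes, a share that moved with single libraries as given above). Ifih1, which encodes the RNA sensor MDA5 upstream of MAVS, had 4.26, 4.39 and 5.58 CPM with Phen-DC3, against 9.72, 8.53 and 7.01 CPM in controls. The groups did not overlap, as for 22.1% of all tested genes (log2 -0.83 ± 0.15, edgeR adjusted p = 0.0112). The call was lost without Phen-DC3 replicate 1 or 2 or control replicate 1. Prkdc, the DNA-dependent protein kinase, fell by 0.68 (± 0.18), Abcc1, a transporter that exports cGAMP, by 0.46 (± 0.12), Chuk, a kinase of NF-kB signalling, by 0.40 (± 0.12) and Jak1, the kinase of the interferon receptor, by 0.35 (± 0.09), all on the log2 scale. Banf1, a chromatin protein that limits binding of cGAS to nuclear DNA, rose by 0.39 ± 0.12. With the length trend removed these 5 calls were lost, and the log2 differences were -0.14 for Prkdc, -0.28 for Abcc1, -0.24 for Chuk, -0.19 for Jak1 and 0.20 for Banf1. Of the 97, 1, Ifih1, was then called. The count was 0 when Phen-DC3 replicate 1, Phen-DC3 replicate 2 or control replicate 1 was left out, 1 when control replicate 2 was, and 26 and 25 when replicate 3 of Phen-DC3 or of the controls was.

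Under Braco-19, 3 of the 97 rose and 0 fell (3.09%, against 0.275% of all genes). Both shares rested on single libraries. With the groups alone 14 of the 97 and 781 genes in all were called, and without Braco-19 replicate 1 these were 7 and 153. Without Braco-19 replicate 2 or 3, or any 1 of the controls, 0 of the 97 and 1 to 20 genes in all were called. Ccl5, a chemokine induced through IRF3 and NF-kB, averaged 6.13 ± 0.68 CPM with Braco-19 and 2.55 ± 0.07 CPM in controls (log2 1.26 ± 0.25). Irf7 averaged 21.5 ± 1.75 and 14.8 ± 0.41 CPM (log2 0.54 ± 0.11), and Stat2, a subunit of the interferon-activated factor ISGF3, 70.3 ± 6.25 and 53.3 ± 3.90 CPM (log2 0.40 ± 0.08). Each had an edgeR adjusted p of 0.0343, and all 3 calls were among those lost with these 5 libraries left out in turn. The 12 output genes had a median log2 difference of 0.74, against 0.0023 for all tested genes, and all 12 were above 0, although 1, Ccl5, passed. The lists were drawn up with earlier results of these data known, so neither this count nor the 3 of the 97 is independent support.

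The type I interferon genes Ifnb1, Ifna1 and Ifna4 had 0 counts in all 18 libraries, which allows up to 3 counts, or 0.163 to 0.191 CPM, in a library. Zbp1, Aim2, Tlr7, Tlr9, Oas2 and Oas3, sensors of DNA or RNA, had at most 3 counts in any library and were not tested.

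**Figure D3:**
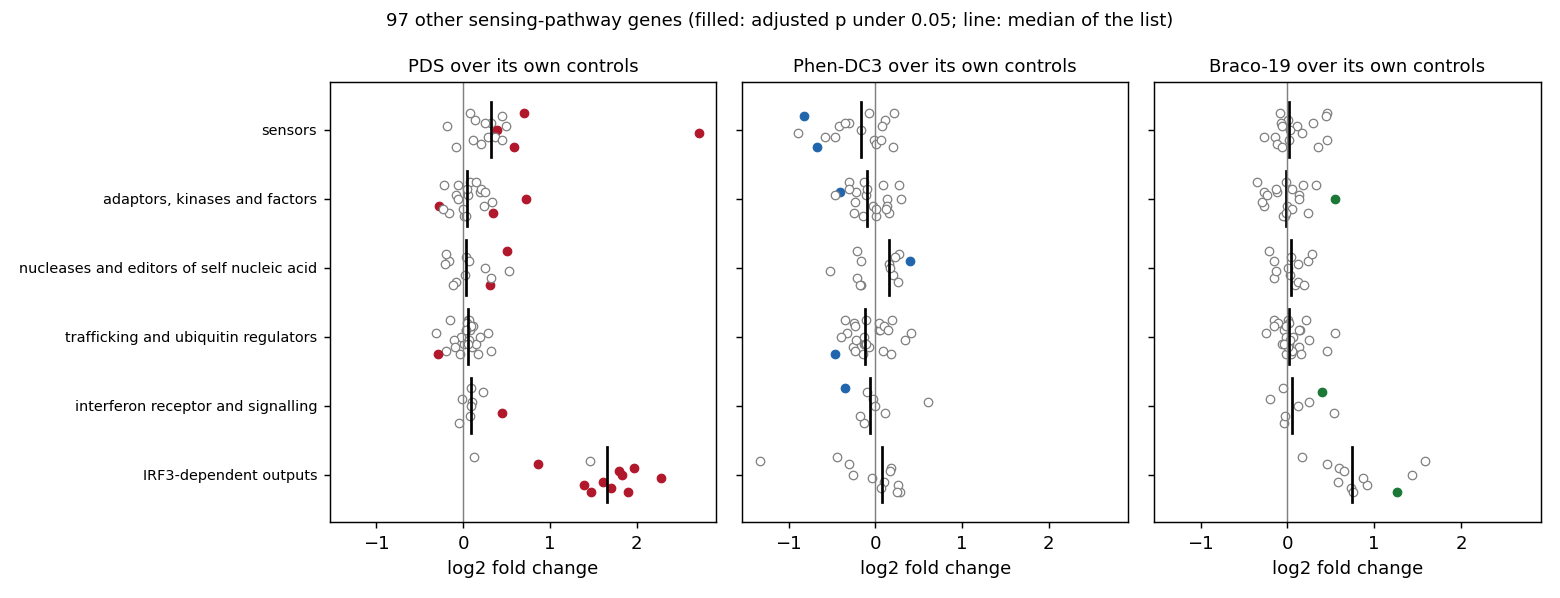
log2 fold change (horizontal axis) of 97 other sensing-pathway genes by list, under PDS, Phen-DC3 and Braco-19; points are genes, filled where the adjusted p was under 0.05, and a black line gives the list's median. The output genes have medians of 1.65, 0.08 and 0.74 under PDS, Phen-DC3 and Braco-19, while the medians of adaptors and of trafficking factors stay between -0.11 and 0.06.

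The largest differences in the 6 genes were between control groups. Tbk1 and Cgas were lower, and Trex1 higher, in the PDS and Phen-DC3 controls than in the Braco-19 controls. These comparisons share control groups with each other and with the comparisons of the compounds, and most of the genome differed: 73.3% of tested genes passed between PDS and Braco-19 controls, 69.5% between Phen-DC3 and Braco-19 controls and 6.09% between PDS and Phen-DC3 controls. Of the 6 genes, 4, 3 and 1 passed in these pairs, counts that are read against those shares and are not a result about the set.

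Cgas averaged 2.79 ± 0.49 CPM in PDS controls and 2.98 ± 0.39 CPM in Phen-DC3 controls, against 5.81 ± 0.73 CPM in Braco-19 controls. The log2 differences were -1.06 ± 0.21 (edgeR adjusted p = 0.000109) and -0.96 ± 0.21 (edgeR adjusted p = 0.000314). Tbk1 averaged 27.4 ± 2.73 and 32.6 ± 1.90 CPM in PDS and Phen-DC3 controls, against 48.4 ± 2.03 CPM in Braco-19 controls, with log2 differences of -0.82 ± 0.09 and -0.57 ± 0.09 (edgeR adjusted p = 7.69e-08 and 1.28e-05). Neither gene's libraries overlapped with those of the Braco-19 controls. Such separation held for 76.9% of all tested genes with PDS controls and for 71.2% with Phen-DC3 controls. With the length trend removed, the differences of Cgas were -1.51 and -1.36 and those of Tbk1 -0.60 and -0.40, all still past the threshold.

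Trex1 averaged 47.3 ± 2.37 CPM in PDS controls and 36.8 ± 6.03 CPM in Phen-DC3 controls, against 27.5 ± 1.99 CPM in Braco-19 controls (log2 0.78 ± 0.10 and 0.42 ± 0.10, edgeR adjusted p = 8.69e-07 and 0.00122). With length correction these became 0.10 (adjusted p = 0.336) and -0.16 (adjusted p = 0.14), so neither call was kept.  Irf3 was not called as counted (0.15 and 0.03) and was lower after correction (-0.34 and -0.41, adjusted p = 0.00109 and 0.000219). With upper-quartile scaling, which shifted the median of all genes by 0.11 in both comparisons, the first Irf3 difference was 0.26 and past the threshold. Bcl2l12, which shares 865 bp with it, was higher in both control groups, by 0.98 ± 0.12 and 0.59 ± 0.12. Mavs passed between PDS and Braco-19 controls at -0.19 ± 0.08 (edgeR adjusted p = 0.0463), a call kept in 4 of 15 alternatives. Sting1 differed by 0.20 ± 0.17 and 0.11 ± 0.17 and did not pass.

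Between PDS and Phen-DC3 controls, Trex1 was higher in PDS controls, with 44.7, 49.4 and 47.6 CPM, against 33.4, 33.3 and 43.8 CPM in Phen-DC3 controls (log2 0.36 ± 0.10, edgeR adjusted p = 0.0439). Phen-DC3 control replicate 3 lay near the PDS controls, and without it the difference was 0.50. The call was lost in 8 of 15 alternatives, among them leaving out Phen-DC3 control replicate 1 or 2 or PDS control replicate 2 or 3, fitting the groups alone, and the length correction. The 864 genes called between these controls became 9, 261, 37 and 0 without those 4 libraries (PDS control replicates 2 and 3, then Phen-DC3 control replicates 1 and 2), 2740 without Phen-DC3 control replicate 3 and 3 with the groups alone. Summed leukocyte markers were 109 to 114 CPM in PDS controls and 95.6 to 107 CPM in Phen-DC3 controls, against 34.8 to 42.7 CPM in Braco-19 controls. That difference was almost all Cd14 (group means of 110 and 100 CPM, against 34 CPM). The other markers past the filter went the other way, Cd68 with 1.07 and 1.15 CPM, against 2.57 CPM, and Csf1r with 0.161 and 0.14 CPM, against 0.801 CPM. Summed nucleus pulposus markers were 285 to 307 CPM in PDS controls and 296 to 335 CPM in Phen-DC3 controls, against 450 to 476 CPM in Braco-19 controls. By group means Ncam1 carried much of this (71 and 75.4 CPM, against 208 CPM). Cd24 (37.3 and 39.8 CPM, against 13.7 CPM) and Krt8 (14.6 and 12.5 CPM, against 7.2 CPM) went the other way. The part of these markers, of the Col1a1 level and of other differences between the sets in the results of the 6 genes was not tested beyond the length correction.

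**Figure D4:**
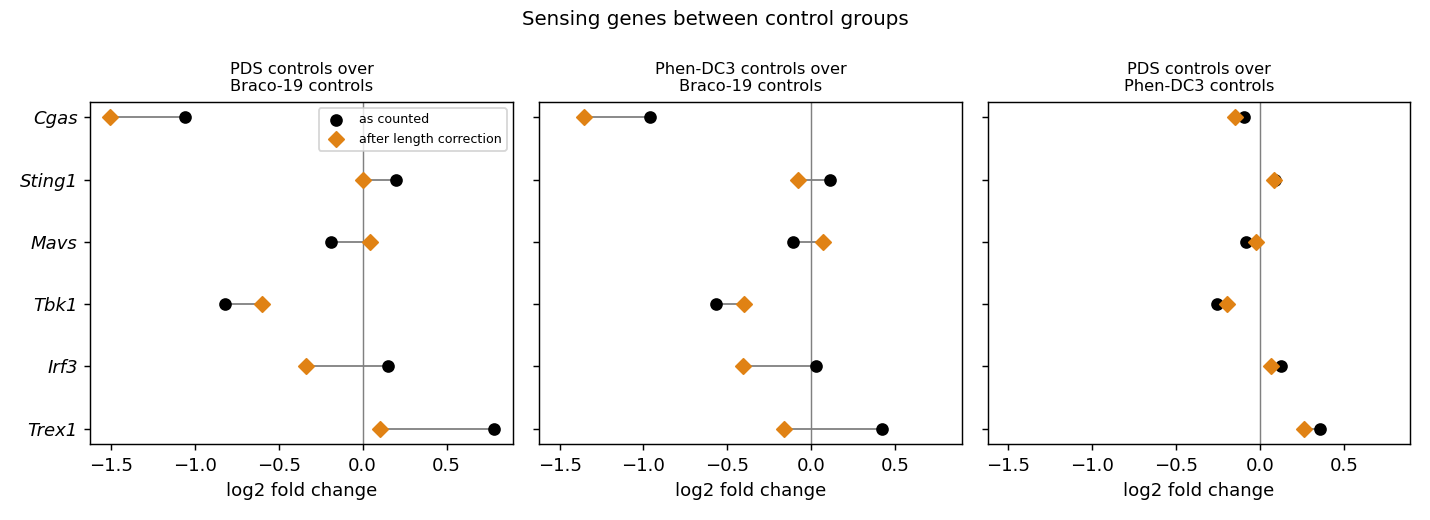
log2 fold change (horizontal axis) of the 6 genes between control groups, as counted (black circles) and with the length trend of each library removed (orange diamonds). Cgas and Tbk1 stay below 0 against the Braco-19 controls, while Trex1 is at 0.78 and 0.42 as counted and at 0.10 and -0.16 after the correction.

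Over the 18 libraries the genes fell into opposed patterns. The log2 CPM of Tbk1 and Trex1 had a Pearson r of -0.897 and that of Tbk1 and Cgas 0.825, but the deviations from group means had r of -0.284 and 0.154. Irf3 and Trex1 had r of 0.219 over the libraries and 0.627 within groups. These correlations are descriptions: the libraries share control sets, and long-gene coverage differs between those sets. Among 9212 candidate genes, those most like Tbk1 were Zfp280d (0.986), Rsbn1 (0.985) and Zfyve16 (0.984), by Pearson r of log2 CPM over the 18 libraries. Those most like Cgas were Cdc7 (0.94), Ccp110 (0.938) and Zfp180 (0.934), and those most like Trex1 were Thop1 (0.948), Prpsap1 (0.947) and Ckb (0.947). Irf3 was most like Mief2 (0.921), Cc2d1b (0.898) and Klf16 (0.872). Mavs and Sting1 had weaker matches, RGD1306746 (0.789), Ap2b1 (0.768) and Dcaf12 (0.757) for Mavs and Scrn1 (0.705), Rerg (0.693) and Arhgap28 (0.692) for Sting1.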

How the data were processed

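RNA was sequenced in 18 libraries of rat nucleus pulposus cells, 3 in each of 6 groups. The deposited table holds raw whole-number counts per gene, with gene positions and lengths. The submitters' processing notes name CASAVA, HISAT2 and featureCounts 1.5.0-p3. No source used here gives the genome build, the annotation or the strandedness.

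The analysis used edgeR 4.0.16 in R 4.3.3. Low counts were filtered by group, TMM factors scaled the libraries, and a robust quasi-likelihood model with 1 mean per group was fitted to all 18 libraries (12 residual degrees of freedom). Tests were two-sided, with Benjamini-Hochberg adjustment over 14184 genes and a threshold of 0.05. Standard errors came from the F statistics. Differences between compounds were interaction contrasts. The length correction removed each library's lowess trend (span 0.3) of log2 CPM on gene length. Alternatives were RLE and upper-quartile scaling, no filter or a CPM filter (1 CPM in 3 libraries), DESeq2 1.42.0, the compared groups alone, a replicate block, the length correction, and leaving out each library. The calling was tested on simulated data.

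The members, lists and tests were chosen with earlier results of these data known. Named besides the 6 genes are, per list and compound, up to 4 genes with the smallest p among those called, and per member the 3 genes with the highest Pearson r (log2 CPM with prior count 2, mean at least 3). Markers are named for their level, and Bcl2l12 and untested genes for their overlap or zero counts.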

Additional observations from a re-analysis of the deposited data

Results flagged for a closer look

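These results were picked out because the effects of 2 compounds on the same gene differed in an edgeR test of the difference itself (adjusted p under 0.05 over all tested genes). Among the 6 sensing genes this held for Irf3 alone, with a log2 difference of -0.42 between the effects of PDS and Braco-19.

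Between PDS and Phen-DC3, 36 of the 97 other pathway genes passed, where 20.2% of all tested genes did. Of the 36, 18 are not named above (log2 differences of -0.49 to 2.80). The 36 include 11 of the 12 output genes, whose rise under PDS was known when that list was drawn up, so the count is not independent support. Of those named, the effect on output genes differed by 1.78 for Cxcl10, 1.65 for Usp18, 1.64 for Oasl, 1.18 for Ccl5 and 1.12 for Isg15, all on the log2 scale and higher with PDS. Among sensors the differences were 1.27 for Ifih1 and 0.56 for Lrrfip1. Oas1a differed by 3.61, a description only, since it reached the test through the PDS libraries alone, and its call was kept in 8 of 20 alternatives. Among adaptors and factors they were 0.59 for Traf3, Chuk and Irf7 and -0.42 for Sqstm1. Among nucleases and editors they were 0.71 for Enpp1, 0.48 for Adar and -0.55 for Banf1. Abcc1 differed by 0.63, Jak1 by 0.44 and Usp20 by -0.46. After the length correction the calls of Lrrfip1, Traf3, Chuk, Adar, Banf1, Abcc1 and Jak1 were lost.

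Between PDS and Braco-19, 17 of the 97 passed, 5 of them output genes, where 14% of all tested genes did. This count of 17 is likewise not independent support. Of those named above, the differences were 1.37 for Cxcl10, 1.15 for Usp18, 0.97 for Oasl, 0.72 for Enpp1, -0.44 for Usp20 and 0.36 for Traf3, whose call was kept in 4 of 21 alternatives. The 11 others ran from -0.55 to 1.42, 7 higher and 4 lower with PDS, with Rsad2 (1.42) and Ifit3 (1.14) the highest, which are named after their values were seen. Between Phen-DC3 and Braco-19 the effect on Ifih1 differed by -1.27, a call kept in 9 of 21 alternatives. Groups of 3 libraries are too small for a test of single outlying libraries.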

How the results depend on the processing

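Of the values of the 6 genes over 15 alternatives per comparison (21 per difference between compounds), 833 were unchanged in direction and call. A further 40 lost a call, 7 gained one and 35 turned sign. Most results were not called in the main fit, so unchanged mostly meant still not called. Sting1 under PDS lost its call in 8 of 15, and Irf3 between PDS and Braco-19 in 13 of 21. Between PDS and Braco-19 controls Mavs lost its call in 9 of 15 and Trex1 in 2. Trex1 between PDS and Phen-DC3 controls lost it in 8 of 15, and between Phen-DC3 and Braco-19 controls turned sign in 2. The Cgas and Tbk1 calls were kept in all 15. DESeq2 gave no adjusted p for Cgas under Phen-DC3 and Braco-19, Sting1 under Braco-19, Ccl5 under Braco-19 and Oas1a, and these are not counted. Of 50 called results of other named genes, 19 kept the call under all alternatives and 31 lost it under at least 1. The cause of these changes was not tested, except that leaving out a library or a group leaves fewer samples.

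Members called under PDS numbered 0 with no filter, with the replicate block and with the block plus length correction, and 0 to 1 with a library left out. Under Phen-DC3 they numbered 0 to 1 with a library left out. Between PDS and Phen-DC3 controls they numbered 0 with the groups alone, the length correction, the block or both, and 0 to 2 with a library left out. For the difference between PDS and Phen-DC3 they numbered 0 to 2 with a library left out. For that between PDS and Braco-19 they numbered 2 with the groups alone, 0 with no filter, the length correction or the block plus length correction, and 0 to 1 with a library left out.

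Genes called under PDS numbered 2053 with the groups alone and 563 to 867 with a library left out. Under Phen-DC3 they numbered 2106 by DESeq2, 1 alone, 47 after length correction, 734 with the block, 13 with both and 0 to 3315 with a library left out. Under Braco-19 they numbered 359 by DESeq2, 781 alone and 1 to 153 with a library left out. Between PDS and Phen-DC3 controls they numbered 1599 by DESeq2, 3 alone, 468 after length correction, 344 with the block plus length correction and 0 to 2740 with a library left out. For differences between effects, PDS and Phen-DC3 gave 1888 after length correction, 1653 with the block as well and 1447 to 4218 with a library left out. PDS and Braco-19 gave 3239 alone and 896 to 2353 with a library left out. Phen-DC3 and Braco-19 gave 53 by DESeq2, 4 with RLE, 0 alone or after length correction, 2 with the block with or without that correction, and 0 to 15 with a library left out. Upper-quartile scaling gave 575 higher and 527 lower genes under PDS, against 728 and 420.

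Other pathway genes called numbered 13 to 16 under PDS with a library left out. Under Phen-DC3 they numbered 17 by DESeq2, 0 alone, 1 after length correction, 0 with the block as well and 0 to 26 with a library left out. Under Braco-19 they numbered 6 by DESeq2, 14 alone and 0 to 7 with a library left out. Between PDS and Phen-DC3 controls they numbered 16 by DESeq2, 0 alone, 3 after length correction, 5 with no filter, 4 with the block, 1 with both and 0 to 29 with a library left out.

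Signs turned as follows, with the value after length correction first and with the block added second. Against Braco-19 controls, PDS controls gave -0.337 and -0.3373 for Irf3 and 0.0454 and 0.0461 for Mavs. Phen-DC3 controls gave -0.4051 and -0.4072 for Irf3, 0.0712 and 0.0713 for Mavs (0.0053 with upper-quartile scaling), -0.0814 and -0.0807 for Sting1 and -0.1613 and -0.1617 for Trex1. Cgas under Phen-DC3 was -0.018 and -0.0094. The difference between Phen-DC3 and Braco-19 was 0.0344 and 0.0335 for Mavs (0.0093 with no filter) and 0.0014 for Tbk1. With a library left out, Tbk1 under PDS ran from -0.0208 to 0.1502, Cgas under Phen-DC3 from -0.0397 to 0.2604 and Sting1 under Braco-19 from -0.0275 to 0.2031. Irf3 between Phen-DC3 and Braco-19 controls ran from -0.0618 to 0.1506, and between PDS and Phen-DC3 controls Cgas ran from -0.1857 to 0.0437 and Sting1 from -0.0112 to 0.1614. For the difference between Phen-DC3 and Braco-19, Tbk1 ran from -0.1002 to 0.0127, Trex1 from -0.1572 to 0.0738 and Mavs from -0.0673 to 0.0359.

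Same-numbered treated and control libraries had correlations of -0.251 to 0.072 in their deviations. Of 9 treated libraries, 4 correlated best with their own number, among them all 3 with Braco-19. No clear pairing was seen, but with 3 libraries per group these values cannot exclude it. The main fit had no replicate block. With the replicate block the adjusted p was 0.0629 for Sting1 under PDS (log2 -0.57), 0.0587 for Trex1 between PDS and Phen-DC3 controls and 0.0528 for Stat2 under Braco-19. Cgas and Sting1 had the fewest reads and the highest variation between replicates of the 6 genes.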
